A study of Homo sapiens with 12 samples.

Results

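Transcripts of 10 genes of the integrated stress response were followed through polysome preparations of MCF10A cells, an established human mammary epithelial line. The labels name breast cancer as its origin, whereas the line is usually counted as non-tumorigenic. The 10 genes were ATF4, ATF5, DDIT3, PPP1R15A, PPP1R15B, ASNS, TRIB3, CHAC1, SESN2 and DDIT4, out of 19775 genes that had a probe set annotated with a single symbol. They were chosen by name, with earlier results of these data known. Of the 54675 probe sets, 17 carried no symbol but theirs. Where a gene had several, the probe set with the largest mean log2 intensity on the 12 arrays stood for it. These were 200779_at for ATF4, 204998_s_at for ATF5, 209383_at for DDIT3, 37028_at for PPP1R15A and 224692_at for PPP1R15B. The others were 205047_s_at for ASNS, 218145_at for TRIB3, 219270_at for CHAC1, 223196_s_at for SESN2 and 202887_s_at for DDIT4. Of the 10 genes, 9 passed the filter on dim genes (a log2 intensity of at least 6 on at least 4 arrays), and CHAC1 did not.

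The cells were wild type (WT) or had eIF4G1 silenced by a short hairpin RNA that doxycycline induces (4GKD, here the knockdown), and each was either mock-treated or given 10 Gy from a linear accelerator. Each of these 4 conditions gave RNA of light polysomes (LMW), heavy polysomes (HMW) and unfractionated lysate (Total), with 1 array for each of the 12 combinations. For the WT mock cells the labels define LMW as mRNAs with 1 to 3 ribosomes and HMW as mRNAs with 4 or more. All gradients were loaded with lysates of cells treated with cycloheximide, which holds ribosomes on mRNAs. The sources used here give neither a control hairpin or doxycycline for the WT cells nor the time from irradiation to harvest. Hairpin, doxycycline and loss of eIF4G1 therefore cannot be told apart. Nor do the labels say whether arrays came from separate cultures, so p-values measure the spread between these samples, which may be technical. In such bulk RNA, fewer cells with a transcript and less of it per cell cannot be told apart.

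In the integrated stress response, kinases that sense amino acid shortage, misfolded protein, viral RNA or low haem phosphorylate the initiation factor eIF2, which slows initiation on most mRNAs. The mRNAs of ATF4, ATF5, DDIT3, PPP1R15A and PPP1R15B carry short upstream open reading frames (uORFs) in their leaders, which hold back the main reading frame in unstressed cells and let it be read when eIF2 is phosphorylated. ATF4 is the transcription factor at the centre of the response, and ASNS, TRIB3, CHAC1, SESN2 and DDIT4 are among the genes it activates. PPP1R15A and PPP1R15B direct protein phosphatase 1 to eIF2 and close the loop. The knockdown removes a different step, since eIF4G1 is the scaffold that brings the ribosome to capped mRNAs.

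ATF4 and its partners bind DNA at a composite C/EBP-ATF element, so the RefSeq promoter windows of the 10 genes were searched for its core, TGATGNAA, on both strands. Each of the 10 had a window, 17 in all, that ran from 250 bases before to 50 bases after a gene start in GRCh38.p14. The core was found in windows of 3 of the 10 genes (ASNS, CHAC1 and PPP1R15B) against 4.46% of all 27305 genes with a window (3.62% of 35116 windows). The cAMP response element TGACGTCA, which reads the same on both strands and does not overlap the first core, was found in 1 of the 10 genes, PPP1R15A, against 2.25% of all genes (1.85% of windows). The matches are shown because PPP1R15A and, in LMW, ASNS are among the genes with the larger knockdown differences. ASNS was not called for the knockdown in any single preparation, and stood at 0.15 in Total and -0.03 in HMW. PPP1R15B, which also holds the core, was called lower in Total (-0.47). TRIB3, which was called lower in Total and in both polysome pools, had no match to either motif. Capitals mark the match, and each sequence is written 5′ to 3′ on the strand of its gene.
ASNS: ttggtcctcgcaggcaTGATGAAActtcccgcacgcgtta
CHAC1: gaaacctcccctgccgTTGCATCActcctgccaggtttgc
PPP1R15B: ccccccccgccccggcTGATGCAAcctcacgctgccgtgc
PPP1R15A: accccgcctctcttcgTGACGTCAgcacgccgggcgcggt
They lie at chr7:97872453-97872492 (minus strand), chr15:40953246-40953285 (plus strand), chr1:204412021-204412060 (minus strand) and chr19:48872347-48872386 (plus strand). The matches end 60, 201, 219 and 50 bases before the gene start, and that of CHAC1 is the core on the opposite strand. A match is a run of letters and shows no binding, and a window without one says nothing of the factor.

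The EIF4G1 transcript was lower in the knockdown in each preparation (Total -2.47, SE 0.12, adjusted p = 2.26e-06). LMW gave -1.99 and HMW -3.69. Median intensities of the 12 arrays ranged from 22.61 to 24.37, and the number of arrays limits the precision. Both WT mock polysome arrays stood apart from their own Total arrays. Over the 10157 genes kept, the WT mock LMW array correlated with its own Total array at r = 0.712, against 0.856 to 0.859 for the other LMW arrays. The WT mock HMW array did so at 0.815, against 0.921 to 0.930. Among the LMW arrays, WT mock correlated with the others at 0.862 to 0.907. The WT 10 Gy LMW array was just as distant, at 0.861 to 0.907. Among the HMW arrays, r was 0.854 to 0.911 for WT mock and 0.911 to 0.945 for WT 10 Gy. Basal epithelial markers were high on every array (KRT5 11.66 to 13.77, KRT14 11.95 to 13.59), while 2 of 4 hormone-sensing luminal, 2 of 5 fibroblast and none (0 of 3) of the endothelial markers passed the filter.

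**Figure D1:**
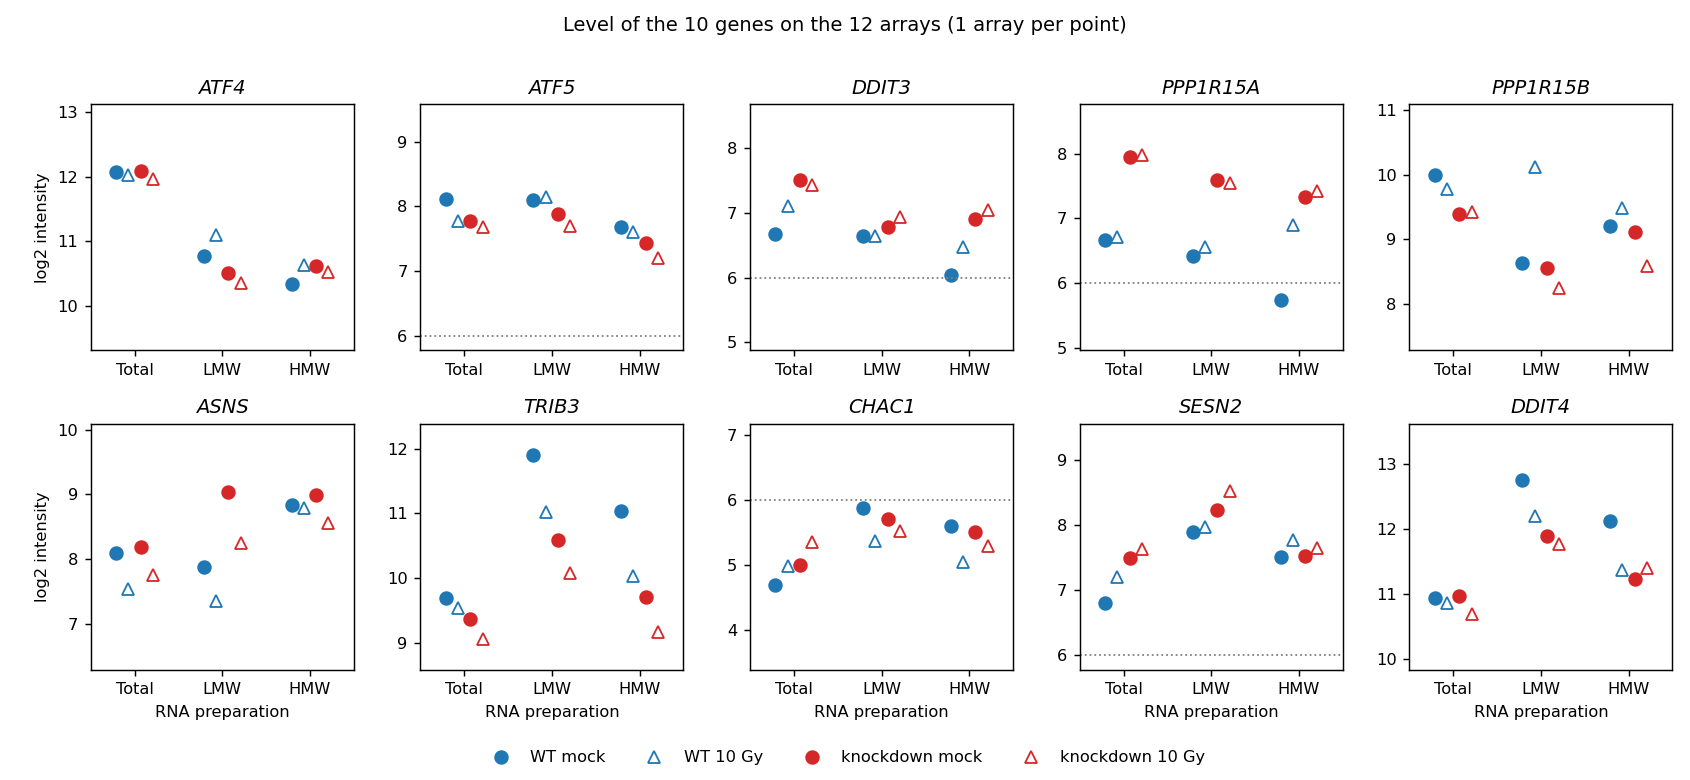
Log2 intensity of the main probe set of each of the 10 genes (y axis) in Total, LMW and HMW RNA (x axis), 1 array per point, blue for WT, red for the knockdown, filled circles for mock and open triangles for 10 Gy; the dotted line marks the filter level of 6. ATF4 lies higher in Total than in either polysome pool, TRIB3 and DDIT4 lie highest in LMW, and every CHAC1 value is below the line.

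ATF4 mRNA was far less abundant in both polysome pools, relative to the other mRNAs there, than in Total. In Total its log2 level was 12.07 in WT mock, 12.03 in WT 10 Gy, 12.09 in knockdown mock and 11.97 in knockdown 10 Gy cells. In LMW it was 10.77, 11.10, 10.51 and 10.36 in the same order. In HMW it was 10.34, 10.64, 10.62 and 10.53. The 4 Total values lay within 0.13 of each other and above all 8 polysome values, while the LMW and HMW values overlapped. HMW held 35.1% of the Total level (difference -1.51, SE 0.12, adjusted p = 0.000642, lower in 4 of 4 pairs). LMW held less than Total by a similar size (-1.36, SE 0.19, adjusted p = 0.00153, lower in 4 of 4 pairs). Levels are relative within an array, so these differences do not give the share of ATF4 mRNA that was on ribosomes. Both differences passed under each of 13 alternative settings, and without the WT mock pair they were -1.44 and -1.37.

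Across all genes, 36.0% passed for HMW against Total and 56.6% for LMW against Total. Of the 9 genes tested, 2 were higher (ASNS, DDIT4) and 3 lower (ATF4, DDIT3, PPP1R15B) in HMW than in Total, against 17.4% and 18.6% of all genes. For LMW against Total, 3 were higher (TRIB3, DDIT4, SESN2) and 1 lower (ATF4), against 28.5% and 28.1%. HMW against LMW gave 0 higher and 4 lower (TRIB3, DDIT4, SESN2, ATF5), where 19.6% of all genes were higher and 21.1% lower. These counts are small, and the overall shares of 5 of 9, 4 of 9 and 4 of 9 stood near the 36.0%, 56.6% and 40.7% of all genes. Without the WT 10 Gy pair, 1 of the 5 for HMW against Total passed, ATF4.

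**Figure D2:**
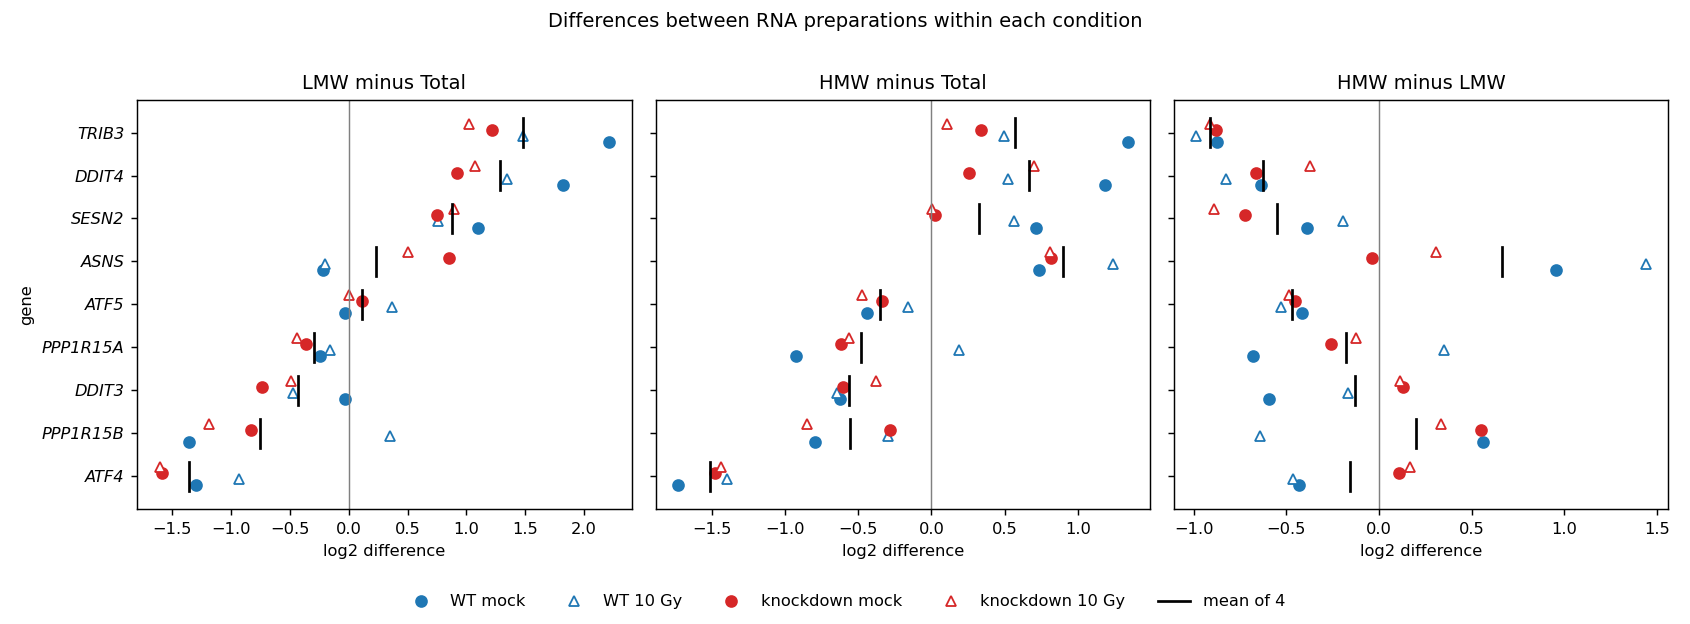
Log2 difference between RNA preparations within each of the 4 conditions (x axis) for the 9 genes that passed the filter (y axis), 1 point per matched pair of arrays, with the black bar at the mean of the 4 pairs. TRIB3 and DDIT4 lie right of 0 in LMW minus Total and left of 0 in HMW minus LMW in every pair, and ATF4 lies between -1.73 and -1.39 in HMW minus Total.

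ATF5, a transcription factor related to ATF4 with a similar pair of uORFs, differed far less on its main probe set. Its log2 level ran from 7.69 to 8.12 in Total, from 7.69 to 8.14 in LMW and from 7.21 to 7.68 in HMW. All HMW values thus lay below all values of the other preparations, which overlapped. It was lower in HMW than in LMW (-0.47, SE 0.12, adjusted p = 0.0208), with the 4 pairs between -0.53 and -0.41. Without the WT mock pair the size was -0.49 and no longer passed (adjusted p = 0.0691). The call was also lost without the knockdown mock or the knockdown 10 Gy pair (adjusted p = 0.0870 and 0.0867). The other 3 ATF5 probe sets gave -0.33 to -0.27, which did not pass either. Against Total, HMW stood at -0.35 (adjusted p = 0.136), and the other probe sets gave 0.02 to 0.42, the opposite sign. LMW stood at 0.12 from Total (adjusted p = 0.648) on the main probe set and at 0.35 (adjusted p = 0.117) on 204999_s_at. It was higher than Total on 217389_s_at (0.63, adjusted p = 0.0206) and on 230938_x_at (0.69, adjusted p = 0.00908).

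DDIT3 encodes CHOP, the transcription factor linked to cell death in prolonged stress. In Total its log2 level was 6.67 in WT mock, 7.11 in WT 10 Gy, 7.51 in knockdown mock and 7.43 in knockdown 10 Gy cells. In HMW it was 6.04, 6.47, 6.91 and 7.05, lower than the Total value of the same condition each time. HMW was lower than Total (-0.56, SE 0.16, adjusted p = 0.0306, 4 of 4 pairs). The call held without the WT mock pair (-0.54, adjusted p = 0.0205) and was lost when any other pair was left out (adjusted p = 0.0954 to 0.109). In LMW, DDIT3 read 6.64 in both WT arrays, 6.77 in knockdown mock and 6.93 in knockdown 10 Gy cells. The difference of LMW from Total was -0.43 (adjusted p = 0.0919). With the WT mock pair left out it was -0.57 and passed (adjusted p = 0.0402).

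The phosphatase subunits were PPP1R15A (GADD34), which stress induces, and PPP1R15B (CReP), which is expressed constitutively. PPP1R15A ran from 6.66 to 7.98 in Total, 6.42 to 7.59 in LMW and 5.74 to 7.42 in HMW, where the WT mock array lay under the filter level. Its preparation differences did not pass: HMW stood at -0.48 from Total (adjusted p = 0.116) and LMW at -0.30 (adjusted p = 0.201). PPP1R15B ran from 9.39 to 9.99 in Total and from 8.58 to 9.48 in HMW, and was lower in HMW (-0.55, SE 0.18, adjusted p = 0.0473, 4 of 4 pairs). That call held under 5 of 13 alternatives. In LMW, 3 PPP1R15B values lay between 8.25 and 8.63 and the WT 10 Gy value at 10.12. LMW stood at -0.76 from Total (adjusted p = 0.0648) with that pair and was lower without it (-1.12, adjusted p = 0.0133).

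TRIB3, a pseudokinase that ATF4 induces and that restrains ATF4 and AKT in turn, had its highest values in light polysomes. In Total its log2 level was 9.69 in WT mock, 9.54 in WT 10 Gy, 9.36 in knockdown mock and 9.06 in knockdown 10 Gy cells. In LMW the 4 values were 11.90, 11.02, 10.58 and 10.08. In HMW they were 11.03, 10.03, 9.71 and 9.17. LMW and Total did not overlap, and within every preparation the order of the conditions was the same. TRIB3 was 2.80-fold higher in LMW than in Total (1.48, SE 0.25, adjusted p = 0.00263, 4 of 4 pairs) and lower in HMW than in LMW (-0.91, SE 0.11, adjusted p = 0.00307). The 4 HMW minus LMW values lay between -0.98 and -0.87. HMW stood at 0.57 from Total (adjusted p = 0.0778), and the second TRIB3 probe set, 1555788_a_at, gave 0.55 (adjusted p = 0.0476). Without the WT mock pair, TRIB3 was at 1.24 for LMW minus Total and -0.92 for HMW minus LMW, and both passed.

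DDIT4 (REDD1) and SESN2 both inhibit the growth kinase mTORC1, DDIT4 through the TSC complex and SESN2 as a leucine sensor, and both are also p53 targets. DDIT4 read 10.94, 10.85, 10.97 and 10.69 in Total (WT mock, WT 10 Gy, knockdown mock, knockdown 10 Gy). It read 12.76, 12.20, 11.89 and 11.77 in LMW, and 12.12, 11.37, 11.23 and 11.39 in HMW. Every polysome value was thus above every Total value. It was 2.44-fold higher in LMW than in Total (1.29, SE 0.20, adjusted p = 0.00197) and higher in HMW than in Total (0.66, SE 0.17, adjusted p = 0.0186). It was lower in HMW than in LMW (-0.62, SE 0.11, adjusted p = 0.00702), each in 4 of 4 pairs. SESN2 ran from 6.80 to 7.63 in Total, 7.90 to 8.53 in LMW and 7.51 to 7.77 in HMW. It was 1.84-fold higher in LMW than in Total (0.88, SE 0.21, adjusted p = 0.00840) and lower in HMW than in LMW (-0.55, SE 0.16, adjusted p = 0.0309). The second of these was lost without the WT mock (-0.60, adjusted p = 0.0780), the knockdown mock (-0.49, adjusted p = 0.124) or the knockdown 10 Gy pair (-0.44, adjusted p = 0.131). The other SESN2 probe set gave -0.72 (adjusted p = 0.00884).

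ASNS, the enzyme that makes asparagine, had no call for HMW against LMW (0.67, SE 0.25, adjusted p = 0.0688). In Total it read 8.10, 7.54, 8.18 and 7.75 in the same order of conditions. In LMW it read 7.88, 7.35, 9.03 and 8.25, with both knockdown values above both WT values. In HMW it read 8.83, 8.79, 8.997 and 8.56, all above the Total values. ASNS was higher in HMW than in Total (0.90, SE 0.18, adjusted p = 0.00812, 4 of 4 pairs), and stood at 0.79 (adjusted p = 0.0546) without the WT 10 Gy pair. CHAC1, a glutathione-degrading enzyme, read 4.68 to 5.35 in Total, 5.37 to 5.88 in LMW and 5.05 to 5.60 in HMW. All 12 CHAC1 values were below the filter level, so it was not tested.

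Other genes of the pathway were counted in 6 lists written from general knowledge, with earlier results of these data known. In HMW against Total, 17.4% of all genes were higher and 18.6% lower. Of 17 tested amino acid targets of ATF4, 8 were higher and 3 lower in HMW than in Total (median 0.34, against 0.03 over all genes). The serine synthesis enzyme PSAT1 (1.12) and the glutamine transporter SLC1A5 (1.12) were its highest members, and the cystine transporter SLC7A11 (-1.98) and the folate enzyme ALDH1L2 (-2.36) its lowest. Of 14 stress factors and other ATF4 or CHOP targets, 3 were higher and 7 lower (median -0.47), with NUPR1 at -1.64 and the oxidase ERO1A at -1.73. Of 12 eIF2 kinases and phosphatase partners, 3 were higher and 2 lower, with GCN1, the activator of the kinase GCN2, at 1.65 and the kinase PERK (EIF2AK3) at -1.30. Of 10 other uORF mRNAs, 3 were higher and 2 lower, with the tRNA synthetase EPRS1 at 1.18. Of 20 genes of the ATF6 and XBP1 arm, 1 was higher and 9 lower (median -0.57), with the chaperone HYOU1 at 0.76 and ATF6 itself at -1.50. Of 15 mTORC1 partners of DDIT4 and SESN2, 9 were higher and 1 lower (median 0.55), with TSC2 at 1.52 and MTOR at 1.36. Without the WT 10 Gy pair, calls in these lists dropped to 8, 5, 1, 2, 4 and 3 in the order given.

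In LMW against Total, 13 of the 20 ATF6 and XBP1 genes were lower and 1 higher (XBP1, 0.60), with a median of -0.93 against 0.01 over all genes. The co-chaperone DNAJC3 (-2.52) and ATF6 (-2.37) were the lowest of them. Calls in that list numbered 9 without the WT mock pair and 9 without the WT 10 Gy pair. With no pair left out, 28.5% of all genes were higher in LMW than in Total and 28.1% lower. The other lists split more evenly: 6 higher and 5 lower among the amino acid targets, 3 and 6 among the stress factors, 1 and 3 among the eIF2 kinases and partners, 3 and 4 among the uORF mRNAs, and 5 and 3 among the mTORC1 partners.

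In Total, 5 of the 9 genes differed between the knockdown and WT, 3 higher in the knockdown (PPP1R15A, DDIT3, SESN2) and 2 lower (PPP1R15B, TRIB3). Of all genes, 40.5% passed (20.7% higher, 19.8% lower). PPP1R15A showed the clearest separation. Its Total level was 6.66 and 6.71 in WT mock and 10 Gy cells, and 7.95 and 7.98 in the knockdown. It rose 2.42-fold (1.28, SE 0.11, adjusted p = 3.44e-05), with 1.28 in mock and 1.27 in irradiated cells. The second PPP1R15A probe set, 202014_at, rose by 1.07 (adjusted p = 0.000531). DDIT3 rose by 0.58 (SE 0.14, adjusted p = 0.00995), with 0.84 in mock and 0.32 in irradiated cells. SESN2 rose by 0.56 (SE 0.12, adjusted p = 0.00503), from 6.80 and 7.20 in WT to 7.49 and 7.63 in the knockdown.

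PPP1R15B fell by 0.47 (SE 0.10, adjusted p = 0.00552), from 9.99 and 9.77 in WT to 9.39 and 9.43 in the knockdown. The constitutive and the inducible phosphatase subunit thus moved in opposite directions in Total. TRIB3 fell by 0.40 (SE 0.10, adjusted p = 0.0106), and its second probe set stood at -0.36 (adjusted p = 0.152). ATF4 was at -0.02 (SE 0.07, adjusted p = 0.833), DDIT4 at -0.06, ASNS at 0.15 and ATF5 at -0.21, and none of these passed. These fits leave 1 residual degree of freedom, the gap between the WT and the knockdown response to 10 Gy. With all 12 arrays in a single fit, 0 of the 9 genes and 107 genes overall passed, and PPP1R15A had an adjusted p of 0.0947. All 3 tested basal epithelial markers were called too in Total of the knockdown, 1 higher and 2 lower (range -1.29 to 0.62, median -0.73). Of the 2 tested fibroblast markers 1 was higher, COL1A1 by 0.78. The part of these markers in the results was not tested.

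**Figure D3:**
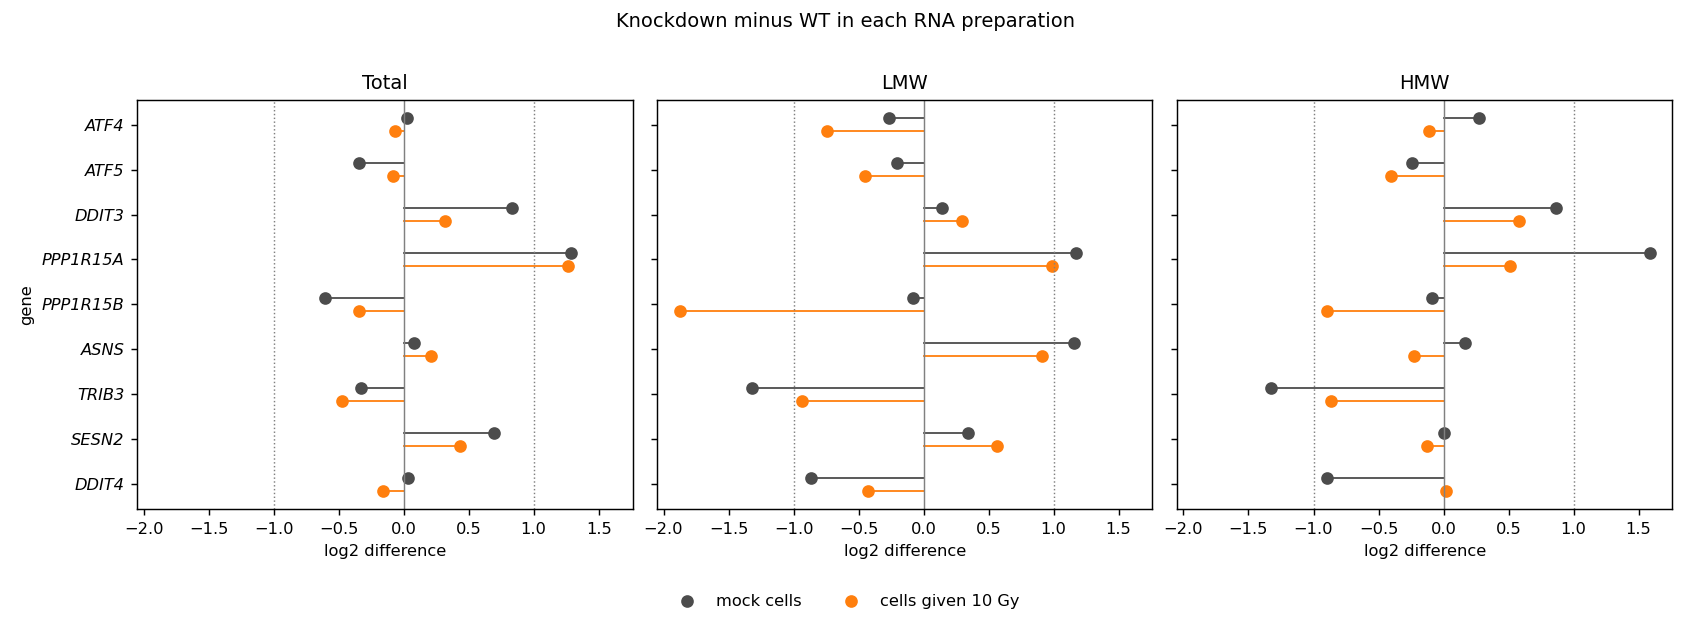
Log2 difference knockdown minus WT (x axis) for the 9 genes (y axis) in each RNA preparation, dark grey for mock cells and orange for cells given 10 Gy, each point 1 array against 1, with dotted lines at 2-fold. PPP1R15A lies to the right in all 6 comparisons and TRIB3 to the left in all 6, and PPP1R15B in LMW differs between mock (-0.08) and irradiated cells (-1.88).

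In light polysomes 1 of the 9 genes passed for the knockdown, where 15.4% of all genes did (10.3% higher, 5.10% lower). TRIB3 fell by 1.13 (SE 0.37, adjusted p = 0.0216), from 11.90 and 11.02 in WT to 10.58 and 10.08, and the second TRIB3 probe set stood at -1.06 (adjusted p = 0.0550). PPP1R15A stood at 1.08 (adjusted p = 0.0504), with 1.17 in mock and 0.99 in irradiated cells, and its second probe set stood at 0.71 (adjusted p = 0.242). ASNS stood at 1.03 (adjusted p = 0.101), DDIT4 at -0.65 (adjusted p = 0.0696) and ATF4 at -0.50 (adjusted p = 0.433). PPP1R15B stood at -0.98 (adjusted p = 0.150), which joins -0.08 in mock and -1.88 in irradiated cells. In this fit and that of HMW, limma pooled the spread completely over genes, so the gap between a gene's pairs hardly entered its p-value.

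In heavy polysomes TRIB3 again was the 1 gene of the 9 that passed, where 9.90% of all genes did (5.82% higher, 4.09% lower). It fell by 1.09 (SE 0.38, adjusted p = 0.0408), from 11.03 and 10.03 in WT to 9.71 and 9.17, and the call held under 3 of 9 alternatives. The fall was -1.32 in mock and -0.86 in irradiated cells. The second TRIB3 probe set stood at -0.62 (adjusted p = 0.419). PPP1R15A stood at 1.05 (adjusted p = 0.0846), with 1.59 in mock and 0.51 in irradiated cells, and its second probe set stood at 1.11 (adjusted p = 0.0541). The WT mock HMW values of PPP1R15A (5.74) and TRIB3 (11.03) were on an array that stood apart from its own Total array. DDIT3 stood at 0.72 (adjusted p = 0.317) and ATF4 at 0.08 (adjusted p = 0.947).

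The knockdown was also compared on the ratio between preparations. For HMW minus Total, limma called 0 of the 9 genes, 0 passed at an unadjusted p under 0.05, and 4.46% of all genes were called. The values ran from -0.69 for TRIB3 to 0.14 for DDIT3, and that of ATF4 was 0.10 (SE 0.32). For HMW minus LMW, 1 of the 9 was called, against 15.8% of all genes. This was ASNS, whose HMW minus LMW difference was 0.96 and 1.44 in WT and -0.04 and 0.31 in the knockdown (-1.06, SE 0.28, adjusted p = 0.00972). HMW levels of ASNS overlapped between the genotypes and LMW levels did not. The call was lost with all 12 arrays in 1 fit and with the variance trend taken over the mean difference (adjusted p up to 0.313). For ATF4 this ratio was -0.43 and -0.46 in WT and 0.11 and 0.17 in the knockdown, and the difference of 0.58 did not pass (adjusted p = 0.0782).

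Among the pathway lists in Total, 6 of the 17 amino acid targets of ATF4 were lower in the knockdown and 1 was higher. Their median was -0.22, against 0.03 over all genes, of which 19.8% were lower and 20.7% higher. The serine synthesis enzyme PHGDH (-1.41) and ALDH1L2 (-1.48) fell most, and SLC7A11 rose (0.94). Of the 14 stress factors and other ATF4 or CHOP targets, 6 rose and 2 fell. The transcription factor ATF3 rose by 2.17 (SE 0.12, adjusted p = 3.67e-06), the hormone STC2 was at -0.59 and the translation repressor EIF4EBP1 at -0.66. Of the 12 eIF2 kinases and partners, 2 rose and 4 fell, with IMPACT, an inhibitor of GCN2 activation, at 0.71 and PERK (EIF2AK3) at -0.65. In the ATF6 and XBP1 arm 6 rose and 5 fell, with the sensor IRE1 (ERN1) at 0.73 and SEL1L at -1.06. The uORF mRNAs split 2 and 2, and the mTORC1 partners 1 and 1, where SESN1 rose by 0.67. With all 12 arrays in 1 fit, 1 gene of the stress factor list passed and 0 of the other lists.

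In the polysome pools of the knockdown, the ATF6 and XBP1 arm was higher for 9 of 20 genes in LMW and 6 of 20 in HMW, with 0 lower in either. Of all genes, 10.3% and 5.82% were higher, and 5.10% and 4.09% lower. Both fits include a WT mock polysome array, which stood apart from its own Total array. With all 12 arrays in 1 fit, 9 and 2 of the 20 were called. For the knockdown on HMW minus LMW, 0 of the 20 were higher and 6 lower, beside 5.33% and 10.5% of all genes. The chaperones HSP90B1 (2.58) and HSPA5 (2.39) led in LMW, and ERN1 (2.04) and ATF6 (1.75) in HMW. The same comparisons for the amino acid targets gave 2 higher and 2 lower in LMW, and 2 higher and 3 lower in HMW. The proline enzyme ALDH18A1 was high in both (1.58 and 1.82), and the serine enzyme PSPH (-1.78) in LMW and PHGDH (-1.97) in HMW were the lowest. ATF3 was higher in LMW (1.46) and in HMW (1.91), and EIF4EBP1 lower in both (-1.37 and -1.39).

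After 10 Gy, limma called 0 of the 9 genes in Total, 0 in LMW and 0 in HMW, where 0.177%, 0.374% and 0.473% of all genes passed. At an unadjusted p under 0.05, 3, 0 and 1 of the 9 passed, beside 1305, 798 and 852 of the 10157 genes. Differences in Total ran from -0.49 for ASNS (SE 0.11, adjusted p = 0.109) to 0.27 for SESN2 (SE 0.12, adjusted p = 0.387). In LMW they ran from -0.69 for TRIB3 to 0.59 for PPP1R15B, and in HMW from -0.76 for TRIB3 to 0.62 for PPP1R15A. On the ratios HMW minus Total and HMW minus LMW, 0 of the 9 passed as well, with 0.276% and 0% of all genes called. At an unadjusted p under 0.05, 0 and 1 of the 9 passed for these ratios, beside 775 and 578 of all genes. In the lists, GDF15, a secreted stress and p53 target, rose in Total (1.05), LMW (1.73) and HMW (2.09), ATF3 rose in HMW (1.56) and the uORF mRNA PTP4A1 in LMW (1.77). No other listed gene passed in these 3 preparations. With all 12 arrays in 1 fit, 10 Gy gave 0 calls among all genes in each preparation, these included, and in Total so did eBayes without a trend.

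**Figure D4:**
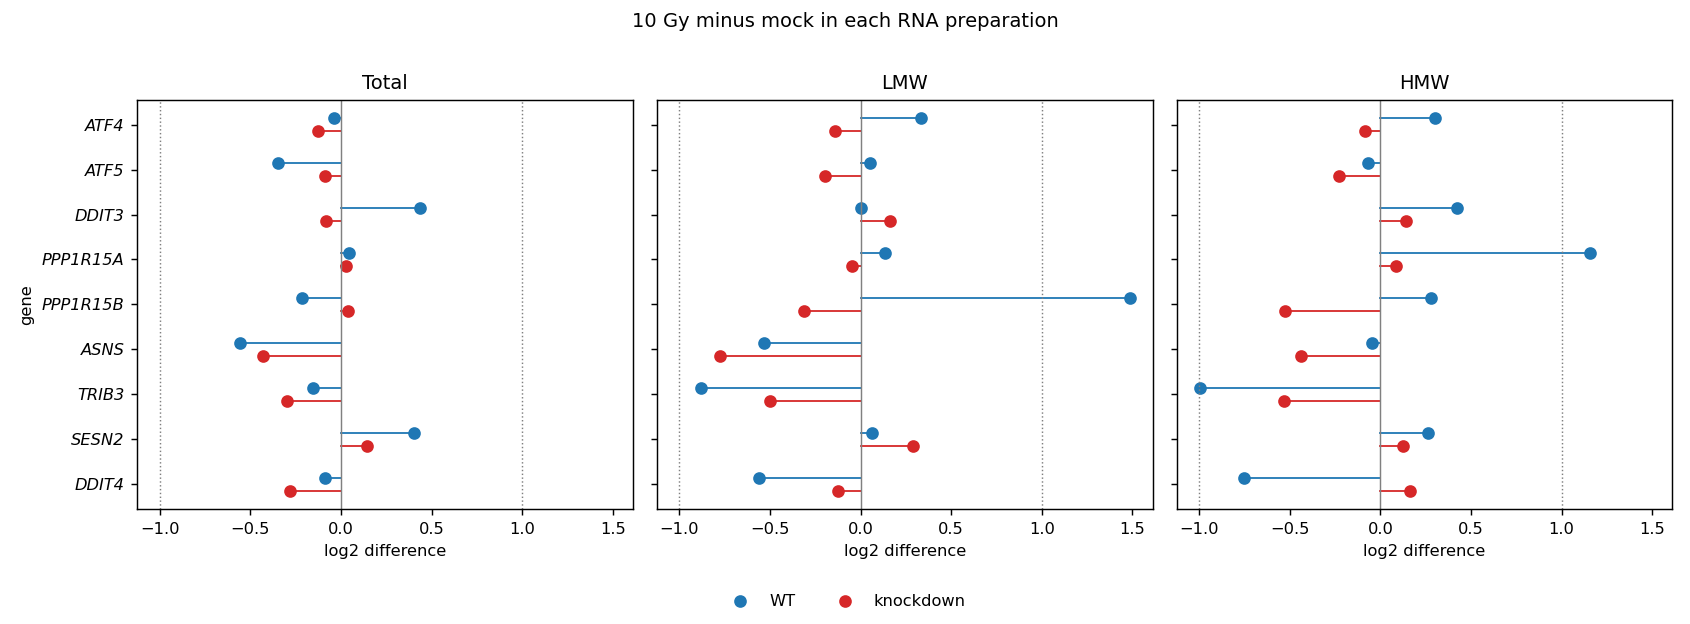
Log2 difference 10 Gy minus mock (x axis) for the 9 genes (y axis) in each RNA preparation, blue for WT and red for the knockdown, each point 1 array against 1, with dotted lines at 2-fold. Beyond 2-fold lie PPP1R15B in WT LMW (1.49) and PPP1R15A in WT HMW (1.16), and TRIB3 lies left of 0 in all 6 comparisons.

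Within a genotype each response to 10 Gy compares 1 array with 1, so it has no replicate check. PPP1R15B in LMW read 8.63 in WT mock and 10.12 in WT 10 Gy cells, 1.49 higher, and 8.56 and 8.25 in the knockdown. PPP1R15A in HMW read 5.74 and 6.90 in WT, 1.16 higher, and 7.33 and 7.42 in the knockdown. These 2 were the values at or beyond 2-fold among the 9 genes, and both were set against a WT mock polysome array. For PPP1R15B the WT mock value (8.63) lay near those of the knockdown, and the WT 10 Gy value (10.12) was the one apart. For PPP1R15A the WT mock value (5.74) was the one apart. In those WT comparisons 20.1% of all genes (LMW) and 18.0% (HMW) lay at or beyond 2-fold, against 1.33% and 0.847% in the knockdown.

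TRIB3 had a negative value for 10 Gy in all 6 comparisons, -0.15 and -0.30 in Total, -0.88 and -0.50 in LMW and -0.996 and -0.53 in HMW (WT, then knockdown). ASNS was below 0 in all 6 too, from -0.78 in knockdown LMW to -0.05 in WT HMW. SESN2 was above 0 in all 6, from 0.06 in WT LMW to 0.41 in WT Total. None of these differences passed the test across both genotypes in any preparation. The share of all genes with the same sign in all 6 comparisons was not counted. ATF4 stood at -0.04 and -0.13 in Total, 0.33 and -0.14 in LMW and 0.30 and -0.09 in HMW. DDIT4 stood at -0.09 and -0.28 in Total, -0.56 and -0.12 in LMW and -0.75 and 0.16 in HMW.

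Over the 12 arrays, log2 levels of TRIB3 and DDIT4 correlated at r = 0.939 and those of DDIT3 and PPP1R15A at 0.844, while ATF4 correlated with TRIB3 at -0.482. The 12 arrays share preparations and conditions, so these values are a description. By the same measure the genes most like ATF4 were TIMM23B and ORMDL1 (0.991 each), and those most like TRIB3 were SRM and EMC8 (0.996 and 0.991). DDIT4 was most like ARL2 and FHL3, DDIT3 like IL23A and ST20-AS1, and PPP1R15A like YBEY and ABHD6, with r from 0.940 to 0.995. PPP1R15B was most like DESI2 and MAL2, ASNS like CSTF2 and CCT5, ATF5 like M6PR and NFIX, and SESN2 like NECAB3 and RGS16, with r from 0.932 to 0.985.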

How the data were processed

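The deposited files hold linear intensities per probe set, made with RMA per the submitters' processing notes, which name no version. Log2 was taken of the deposited intensities. Of 54675 probe sets, 41097 had 1 symbol, 1801 several and 11777 none listed. The filter kept 10157 of 19775 genes. Tests used limma 3.58.1 in R 4.3.3 (lmFit, eBayes with an intensity trend) over all kept genes, with Benjamini-Hochberg adjustment at 0.05. Preparations were compared over 8 arrays with the 4 conditions as a block. Knockdown and 10 Gy were fitted together on the 4 arrays, or 4 differences, of a preparation, without an interaction. Comparisons of 1 array with 1 were not tested. The scripts were tested on simulated data. The members and lists were chosen with earlier results of these data known. Named genes were the members, EIF4G1, up to the 2 highest and 2 lowest passing genes of a list, and the 2 genes most like each member. Alternatives were other filters, probe sets, scalings, blocks and fits, and each condition left out. A fit with the variance trend over the mean difference was chosen after seeing the data. Promoter windows came from RefSeq. Blood markers (0 of 2 measured) did not pass the filter. The uORF sequences and proteins were not used here.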

Additional observations from a re-analysis of the deposited data

How the results depend on the processing

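Of the member differences under alternative settings, 647 were counted as unchanged, 47 no longer passed, 15 newly passed and 18 changed sign. For tested settings, unchanged meant the same direction and side of the threshold. The 647 also hold knockdown differences of a single pair of arrays, which had no p-value. Those counted as unchanged unless a called difference changed sign. Sign changes of uncalled differences in single pairs are thus not among the 18. Members called numbered 4 for HMW minus LMW, 5 for HMW minus Total and 4 for LMW minus Total. Without probe sets ending in _x_at or _s_at, where ATF5, ASNS, SESN2 and DDIT4 were not tested, these became 1, 2 and 2. Without the condition block, the first was 0 and the second 3, and with centred arrays the second was 3. Leaving out a condition gave 2 to 5 for HMW minus LMW, 1 to 5 for HMW minus Total. With all 12 arrays in 1 fit the knockdown gave 0 in Total (5 before), 3 in LMW (1 before) and 0 for HMW minus LMW (1 before). For knockdown in LMW the median of probe sets gave 0. For knockdown in HMW 1 became 0 with no filter, without _x_at and _s_at, with centred arrays and without a trend. For the knockdown on HMW minus LMW the 1 member called, ASNS, lost its call with the trend over the mean difference, which gave 0. Centred arrays gave 2. The median of probe sets and dropping _x_at and _s_at also gave 0, but there ASNS was not tested. Quantile normalization again gave 1 for 10 Gy in Total (0 before). The cause was not tested. Signs turned for ATF5 in HMW minus Total (0.35 by the median, 0.016, 0.36 and 0.42 by other probe sets), in knockdown LMW (0.11, 0.16), in knockdown HMW (0.13, 0.25, 0.34) and in knockdown HMW minus LMW (-0.34), and for SESN2 in knockdown HMW (0.0051). They turned for DDIT3 in HMW minus LMW without the WT mock pair (leaving out a condition gave -0.22 to 0.026) and ATF4 for knockdown in Total with centred arrays (0.0065). For knockdown HMW minus LMW, PPP1R15A became 0.19 (median), 0.11 (quantile), 0.057 (centred) and 0.40 (other probe set), and TRIB3 -0.061 (quantile). In the lists, the median of probe sets turned SQSTM1 (-0.38 in HMW, -0.034 in LMW), RHEB (0.13, 0.20, and 0.18 for knockdown in Total), MAP1LC3B (-0.058) and PTP4A1 (0.40), and dropping _x_at and _s_at turned SQSTM1 (-0.042) and EIF5 (-0.40, -0.52 for knockdown). The preparation comparisons were matched by condition, and no block by replicate number was added, since each group has 1 array. Array number limits what could pass.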
